A study of Sus scrofa with 8 samples.

Results

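Macrophage and complement genes were followed in the testes of 8 differentially fed boars. The genes were CD163, AIF1, CD14, CD68, TLR2, TLR4, LYZ, C1QA, C1QB and C1QC, and their probes were found by the RefSeq accession that the porcine array gives for a probe. Of these 10 genes 7 had a probe, and CD68, C1QB and C1QC had none that could be named. These are 7 of 2228 genes that could be named on the array. They were represented by 13 of 43603 probes, and 12 of the 13 gave a signal in the testes, where 36982 probes did so in all. CD163, AIF1 and CD14 were chosen by their high values in the control boar m_9600 on these arrays, so their level in that boar is a description and is not tested.

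RNA of whole testis tissue from 8 Large White F0 boars was hybridized to 1 single-colour Agilent array each. From the first month of age until slaughter the boars m_9597, m_9599, m_9499 and m_9527 had a feed with extra methylating micronutrients (the supplemented diet, with methionine, choline, betaine, folate and the vitamins B6 and B12), and m_9598, m_9600, m_9502 and m_9528 a control diet. The question of the study was whether the diet affects gene expression in testes. The boars came from 3 litters, and m_9597, m_9598, m_9599 and m_9600 are 4 full brothers, so that boars of one litter are not fully independent samples. Within litters the boars were assigned to the diets at random.

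Resident macrophages lie in the interstitium of the testis, next to the Leydig cells, and on the outside of the seminiferous tubules. CD163 is their scavenger receptor for haptoglobin-haemoglobin complexes, and AIF1 (IBA1) is a calcium-binding, actin-bundling protein of macrophages. CD14 hands bacterial lipopolysaccharide to the Toll-like receptor TLR4, TLR2 recognizes bacterial lipoproteins, LYZ is the lysozyme that cuts bacterial cell walls, and C1QA is a chain of C1q, which starts the classical complement pathway and is made to a large part by macrophages. In RNA of whole tissue, fewer cells of a type and less RNA per cell cannot be told apart.

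The median spot intensity of the arrays was 108 to 192.5, which was 4.91 to 7.40 times the local background, and no spot was saturated. The dimmest array was that of m_9527, and that of m_9600 had a median of 137. The 4 brothers shared a slide and the remaining boars another, so that litter and slide cannot be told apart. On both slides the diets took the same places, so that diet and place cannot be told apart either. The tissue label was checked with marker genes: all 6 Leydig cell genes of the list (among them INSL3 and CYP17A1) and 3 germ cell genes (PRM1, PRM2 and ACR) had signal.

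All values below are quantile-normalized log2 signals of single probes without background subtraction, where a difference of 1 is a doubling of the signal. Values are listed first for m_9597, m_9599, m_9499 and m_9527 on the supplemented diet and then for m_9598, m_9600, m_9502 and m_9528 on the control diet. Differences are supplemented minus control, and adjusted P-values are from limma with Benjamini-Hochberg adjustment over all 36982 present probes.

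The scavenger receptor CD163 was measured by 3 probes. The brightest, A_72_P177981, had signals of 8.98, 9.20, 9.39 and 10.01 on the supplemented diet and of 8.83, 9.90, 8.44 and 8.62 on the control diet. The supplemented boar m_9527 and the control boar m_9600 stood above the other 6, and the 2 diets overlapped. The means were 9.39 ± 0.44 (SD, n = 4) and 8.95 ± 0.66 (SD, n = 4), a difference of 0.45 (SE 0.34) that did not pass the test (limma, adjusted P = 0.840). The dimmer probes A_72_P018171 and A_72_P170001 lay between 5.52 and 6.62 and between 5.52 and 6.24 over all boars, with m_9502 lowest for both and with diet differences of 0.20 and 0.24 (limma, adjusted P = 0.851 and 0.840). The 3 probes followed each other across the 8 boars, with Pearson correlations of 0.79, 0.84 and 0.93.

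AIF1 varied most among the members. Its probe A_72_P394883 read 9.33, 9.07, 9.62 and 10.34 on the supplemented diet against 8.43, 10.43, 9.17 and 8.19 on the control diet. Its second probe, A_72_P176281, read 8.25, 8.01, 8.33 and 8.51 against 7.34, 9.16, 7.60 and 7.21. In both probes m_9600 was highest and m_9528 lowest. For A_72_P176281 the 3 control boars other than m_9600 were below all 4 supplemented boars, and for A_72_P394883 m_9502 lay among the supplemented boars. The fold between the highest and the lowest boar was 4.75 for A_72_P394883 and 3.87 for A_72_P176281. The SD over the 8 boars, 0.80 and 0.65, was exceeded by 2.99% and 7.04% of all present probes, where the median SD was 0.30. This SD holds the value of m_9600 by which AIF1 was chosen, so the share is a description and nothing is read from it. The diet differences were 0.53 (SE 0.47) and 0.45 (SE 0.39), within the spread of the boars (limma, adjusted P = 0.840 for both).

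CD14 was readable by 1 of its 2 probes. A_72_P050971 gave 7.36, 7.49, 7.75 and 8.07 on the supplemented diet and 7.12, 7.96, 7.69 and 7.38 on the control diet. Here m_9527 was highest and m_9600 second, in a range that was narrower than that of AIF1, and the diets overlapped. The diet difference of CD14 was 0.13 (SE 0.22, limma adjusted P = 0.887). The other CD14 probe, A_72_P088666, was well above background in 1 supplemented and 1 control boar, with values of at most 5.35, and was left out of all comparisons.

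The first complement component gene C1QA was high in m_9527. Probe A_72_P165561 had 9.0, 9.09, 9.34 and 10.26 in the supplemented boars and 8.94, 9.49, 8.78 and 8.56 in the control boars. After m_9527 the highest value was that of m_9600, the other supplemented boars lay below it, and the 3 remaining control boars were the lowest of the 8. The means were 9.42 ± 0.58 (SD, n = 4) and 8.94 ± 0.40 (SD, n = 4). The difference of 0.48 (SE 0.30) had a 95% interval from -0.20 to 1.16, so that neither no difference nor a doubling is excluded by it (limma, adjusted P = 0.840).

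The Toll-like receptors gave smaller differences between the diets. TLR2 (A_72_P088356) had signals of 7.42, 7.13, 7.34 and 6.86 on the supplemented diet and 7.03, 7.79, 7.03 and 6.68 on the control diet, with m_9600 highest, and m_9527, which was high for CD163, AIF1 and C1QA, second lowest. Its diet difference was 0.06 (SE 0.24, limma adjusted P = 0.959). TLR4 was measured by 3 dim probes, of which A_72_P165431 read 6.09, 6.21, 6.12 and 5.68 against 6.13, 6.74, 5.58 and 5.75, again with m_9600 highest. The probes A_72_P303724 and A_72_P419074 stayed between 5.63 and 6.20 and between 5.38 and 5.77, and for A_72_P419074 the signal was only 1.47 to 2.30 times the local background. The 3 TLR4 differences between the diets were -0.01, -0.01 and -0.02, with 95% intervals that together ran from -0.59 to 0.55.

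The probes of TLR4 did not all follow one another. A_72_P419074 and A_72_P303724 had r = 0.45 and rho = 0.52 (exact permutation P = 0.269 and 0.197). Without the 2 boars farthest out on A_72_P419074 their r was 0.92. Across the 8 boars A_72_P165431 had a Pearson correlation of -0.31 with A_72_P419074 (rho = -0.43, exact permutation P = 0.458 and 0.299) and of 0.62 with A_72_P303724 (rho = 0.38, exact permutation P = 0.103 and 0.360). Without the 2 boars farthest out on A_72_P419074 and on A_72_P303724, respectively, these became 0.65 and -0.35, so that both rest on those boars. A_72_P165431 ran closer to TLR2, with r = 0.84 and rho = 0.69 (exact permutation P = 0.0123 and 0.0694), and to LYZ, with r = 0.79 and rho = 0.95 (exact permutation P = 0.0199 and 0.00114). Without the 2 boars farthest out on TLR2 and on A_72_P165431, respectively, r was 0.60 and 0.69. In all, 15 pairs among the probes of C1QA, TLR2, TLR4 and LYZ were computed, and 2 had an exact P of r under 0.05.

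Lysozyme was the only gene that was lower on the supplemented diet in both sets of boars. LYZ (A_72_P177571) read 8.29, 8.40, 8.34 and 7.59 on the supplemented diet and 9.10, 9.18, 8.13 and 8.22 on the control diet. The brothers m_9598 and m_9600 on the control diet stood at the top, and m_9527 stood alone at the bottom. The means were 8.16 ± 0.38 (SD, n = 4) and 8.66 ± 0.56 (SD, n = 4), and the difference was -0.50 (SE 0.29, limma adjusted P = 0.840). With the slide, that is the litter of brothers, as a block, the unadjusted P-value of LYZ was under 0.05, as for 1.96% of all probes, and the limma adjusted P-value was 0.797.

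**Figure D1:**
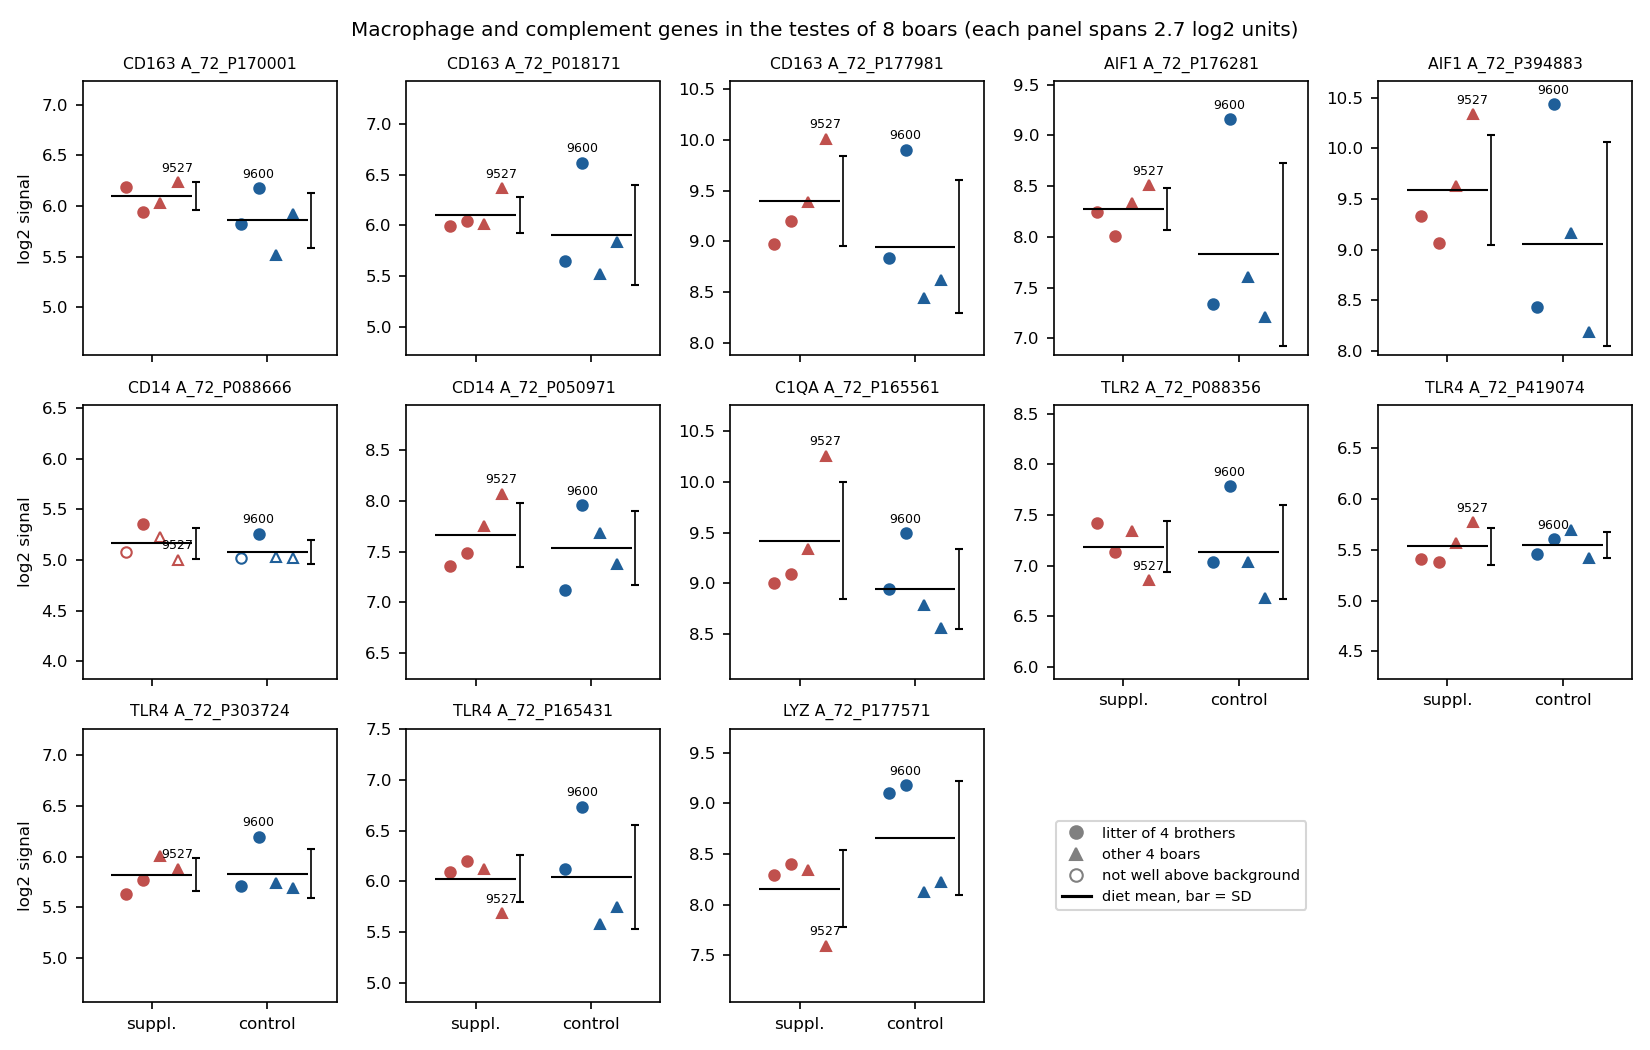
Log2 signal of the 13 member probes (vertical axis, 2.7 log2 units in each panel, quantile-normalized) in the 4 supplemented (suppl.) and 4 control boars. Points are boars, open points were not well above background, lines are diet means and bars the SD. For AIF1 A_72_P394883 the control boar m_9600 (10.43) and the supplemented boar m_9527 (10.34) stand above the other 6 boars, and for LYZ boar m_9527 is lowest (7.59).

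Between the diets none of the 12 present member probes had a limma P-value under 0.05, against 1.86% of all present probes. After adjustment none was under 0.05 either, as for all probes (0%), and none of the 12 had diet groups that did not overlap, which was so for 1.13% of all probes. Of the 12 differences 8 were above 0, and the adjusted P-values were 0.840 to 0.989. These groups hold the boar m_9600, by which CD163, AIF1 and CD14 were picked, among the control boars. With m_9600 left out, 4 probes had a P-value under 0.05, all higher on the supplemented diet, against 3.28% of all probes. These were AIF1 A_72_P176281 (0.89), CD163 A_72_P177981 (0.76), AIF1 A_72_P394883 (0.99) and CD163 A_72_P018171 (0.44), each with an adjusted P-value of 0.792 from limma. Without m_9600, 5 of the 12 probes had diet groups that did not overlap, against 4.03% of all probes. Without both m_9600 and m_9527 these counts were 3 and 6, against 2.06% and 6.73%. The 4 named probes are of genes picked by the high value of m_9600, a control boar. Leaving this boar out raises their difference by the choice, so nothing is read from these counts.

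The diet difference of C1QA, TLR2 and TLR4 had opposite signs in the litter of brothers and in the other boars. In the probes of C1QA, TLR2, TLR4 and LYZ it was below 0 in the brothers and above 0 in the others for 5 of 6 (83.3%), 3 of them probes of TLR4, which 18.9% of all probes showed. The probes of CD163, AIF1 and CD14 did so in 5 of 6 cases as well, but m_9600, for whose high values they were chosen, is 1 of the 2 control boars among the brothers, and nothing is read from their count. For C1QA the diet difference was -0.17 in the brothers and 1.13 in the other boars. It was smaller in the other boars for TLR2 (-0.13 and 0.24) and for the TLR4 probes (-0.28 to -0.13 and 0.11 to 0.24). All members were chosen with earlier results of these data known, so these signs are a description. The values of CD163 A_72_P177981 (-0.28 and 1.17) and AIF1 A_72_P394883 (-0.23 and 1.30) hold m_9600 among the brothers and are a description only. CD163 A_72_P170001 was higher on the supplemented diet in both sets (0.07 and 0.41) and LYZ lower in both (-0.79 and -0.21). In the test of the difference between the 2 sets, C1QA alone of these 6 probes had an unadjusted limma P-value under 0.05, against 2% of all probes, and all adjusted P-values were 1.0 (0% of all probes passed). For CD163, AIF1 and CD14 that test draws on the values by which they were chosen and is not read. In the other boars alone 4 probes (both AIF1 probes, CD163 A_72_P177981 and C1QA) had a limma P-value under 0.05, against 0.971% of all probes, and 8 had diet groups that did not overlap, against 22.6%. This set leaves out m_9600, by which AIF1, CD163 and CD14 were picked, so nothing is read from these 2 counts. In the brothers alone it was 1 probe, LYZ, against 6.44% of all, and 2 probes without overlap, against 37.1%. Each set had 2 boars per diet, with m_9600 in one set and m_9527 in the other.

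**Figure D2:**
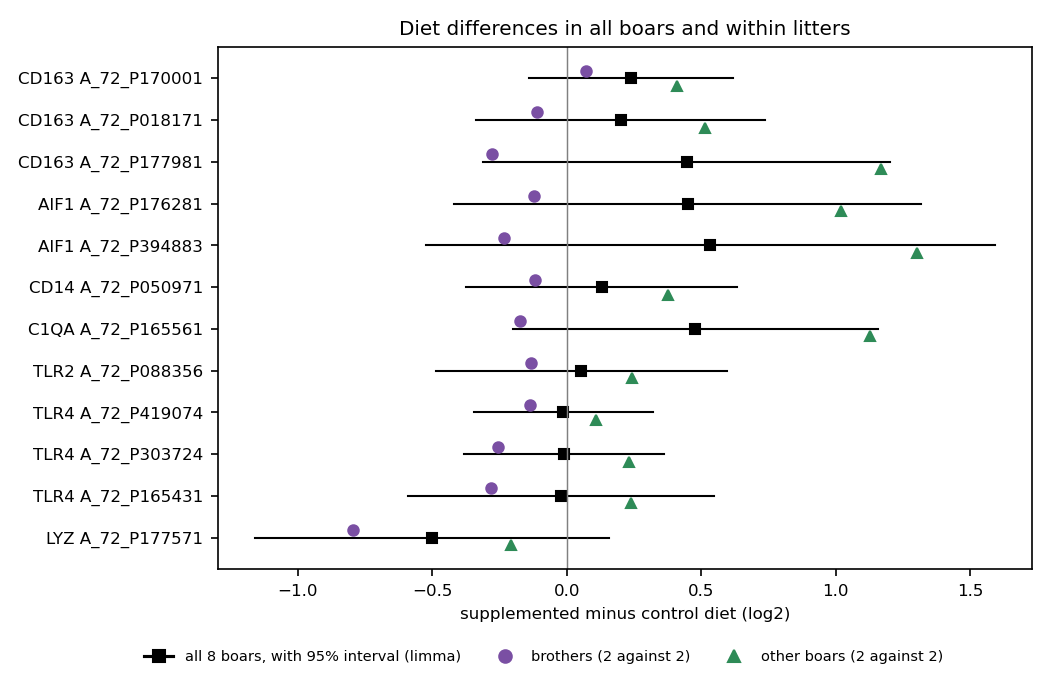
Diet difference of the 12 present member probes (horizontal axis, log2, supplemented minus control), for all 8 boars as squares with the 95% interval from limma, and for the 4 brothers (circles) and the other 4 boars (triangles) alone. All 12 intervals include 0. For C1QA the brothers lie at -0.17 and the other boars at 1.13, while for LYZ both lie below 0.

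Brothers and other boars were also compared with each other, with the diet in the model. LYZ was higher by 0.67 (SE 0.20) in the brothers, with an unadjusted limma P-value of 0.0103 and an adjusted one of 0.573. TLR4 A_72_P165431 was higher by 0.51 (SE 0.20), with a limma P-value of 0.0341 and an adjusted one of 0.593. The other 10 probes had no P-value under 0.05, so that 2 of 12 stand beside 8.11% of all probes. No probe on the array passed after adjustment (0%), and in none of the members were the brothers and the other boars separate, which 6.18% of all probes were.

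The boar m_9600 was highest of the 8 in 4 of the 6 probes of C1QA, TLR2, TLR4 and LYZ (66.7%), against 9.56% of all probes. These were TLR2, LYZ and 2 of the 3 TLR4 probes, and the 2 TLR4 probes are of the same gene. The members were chosen with earlier results of these data known, so this count is a description. The boar m_9600 also led in 3 of the 6 probes of CD163, AIF1 and CD14, which is how they were chosen. In the other 5 probes m_9527 was highest. The array of m_9527 was the dimmest. Before normalization its signal was the highest of the 8 boars only for C1QA among these probes (836.5, with 726 in m_9499). It was 708 for CD163 A_72_P177981 and 193.5 for CD14, against 933 and 242 in m_9600. For CD163 A_72_P170001 and TLR4 A_72_P419074 it was 59 and 44, against 77 and 56.5 in m_9528. The part of the dim array in these ranks was not tested.

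Whether the other genes vary together with CD163, AIF1 and CD14 was asked with a 3-gene profile, the mean of these genes in each boar. It was 8.44 in m_9600, 8.34 in m_9527, 7.96 in m_9499, 7.73 in m_9597, 7.70 in m_9599, 7.52 in m_9502, 7.29 in m_9528 and 7.26 in m_9598. The first 2 boars were apart from the rest, and 3 of the 4 control boars were lowest. Among themselves the probes of the 3 genes had pairwise correlations of 0.37 to 0.94 with a median of 0.81, and 12 of the 15 pairs reached 0.7. CD14 correlated with the mean of the other 2 genes at 0.81, the AIF1 probes at 0.89 and 0.93, and the CD163 probes at 0.58 to 0.86. These 3 genes had been chosen together, so the values describe how tight the profile is.

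Of the other members C1QA followed the profile most closely. Its Pearson correlation was 0.85 and its Spearman rho 0.88 (exact permutation P = 0.00273 and 0.00724 over 40320 pairings), and 0.857% of all present probes had a higher r. Without m_9600 and m_9527, the 2 boars farthest from the median of the profile, r was 0.82, and it stayed between 0.82 and 0.92 in all 18 other settings tried. With the diet means removed r was 0.83, and with the litter means removed 0.86. In the limma regression of all probes on the profile the adjusted P-value of C1QA was 0.363.

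TLR4 A_72_P303724 also reached 0.7, with r = 0.80 and rho = 0.71 (exact permutation P = 0.0185 and 0.0576). This rests in part on the 2 outer boars, since r was 0.63 without them and 0.65 without m_9600 alone. The other TLR4 probes had r = 0.57 (A_72_P419074) and 0.41 (A_72_P165431), with rho = 0.40 and 0.21 (exact permutation P of r = 0.142 and 0.316, of rho = 0.327 and 0.619). Without the 2 boars their r was 0.13 and 0.41.

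TLR2 had r = 0.55 and rho = 0.52 (exact permutation P = 0.153 and 0.197). Its correlation was decided by single boars: it was 0.21 without m_9600, 0.92 without m_9527 and 0.81 without both. LYZ did not run with the profile, with r = -0.10 and rho = 0.05 (exact permutation P = 0.821 and 0.935), an r of -0.42 without the 2 outer boars and of -0.72 without m_9600. Thus 2 of the 6 relations computed (33.3%) reached r = 0.7, which 5.73% of all probes did. Without m_9600 it was 1 of 6 (16.7%) against 14.7% of all probes. In the limma regression on the profile no probe of the array passed after adjustment (0%), while 13.4% had an unadjusted P-value under 0.05.

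**Figure D3:**
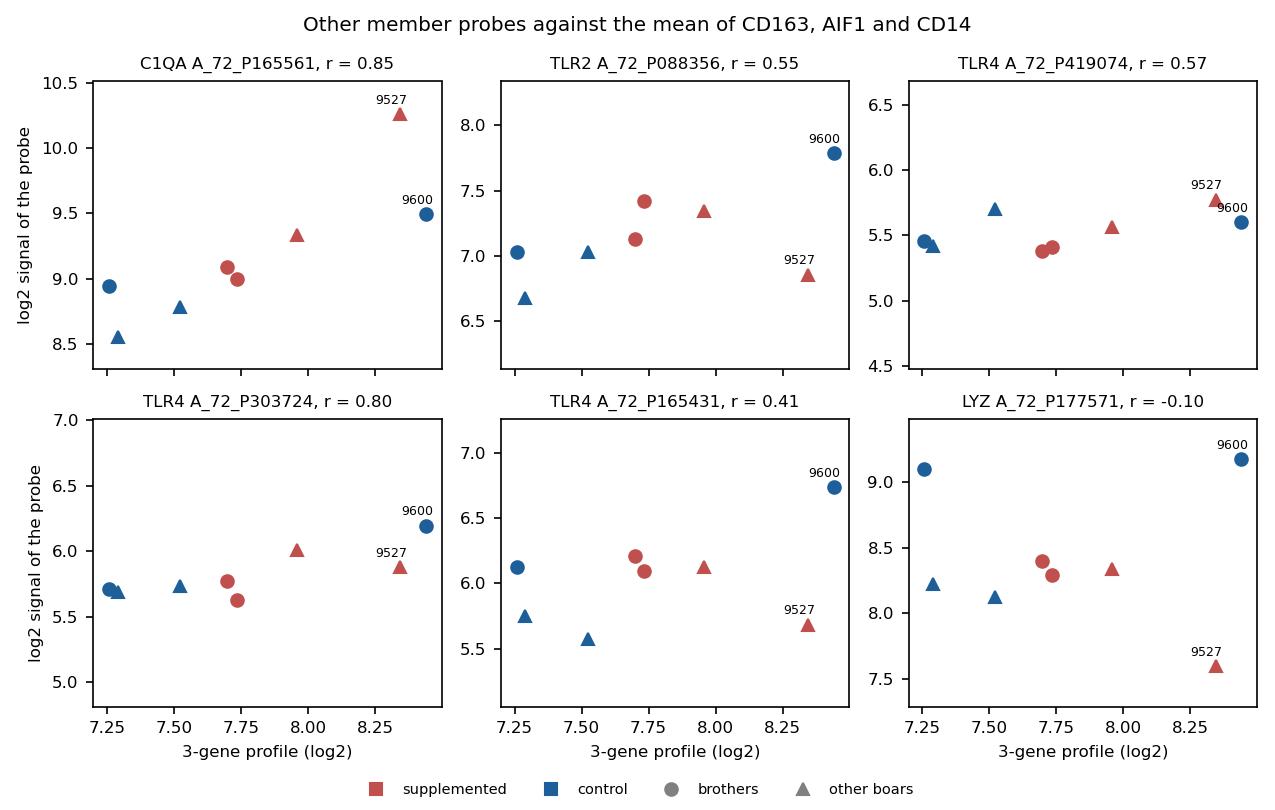
Log2 signal of the 6 present probes of C1QA, TLR2, TLR4 and LYZ (vertical axis, 2.2 log2 units in each panel) against the 3-gene profile (horizontal axis, log2) in 8 boars. Each point is a boar, coloured by diet and shaped by litter. The points of C1QA rise along the profile (r = 0.85), whereas TLR2 (r = 0.55) and LYZ (r = -0.10) fall off in boar m_9527.

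Further genes of the same cells and pathways were taken from lists of macrophage, complement and Toll-like receptor genes, of which 109 probes of 80 genes were present. An r of at least 0.7 with the profile was found for 22 probes of 19 genes, 20.2% against the 5.73% of all probes. Without m_9600 it was 25 of the 109 probes (22.9%) against 14.7% of all probes, so that the distance to all probes was smaller without this boar. Of the 22 probes, 18 were still among the 25. By list they were 10 of 41 macrophage probes (24.4%), 8 of 28 complement probes (28.6%) and 5 of 42 Toll-like receptor probes (11.9%), and 1 of them, ITGB2, stands in both the macrophage and the complement list. The median r of the lists was 0.20, 0.35 and 0.18, so most listed genes did not follow the profile.

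Of the listed genes, the 10 with the highest r were taken singly, and 6 of them stand in the macrophage list. GP91-PHOX (CYBB), the catalytic subunit of the phagocyte NADPH oxidase, had r = 0.95 and read 8.97, 8.68, 8.97 and 10.03 on the supplemented diet and 8.24, 9.77, 8.82 and 7.95 on the control diet. FCER1G and TYROBP, adaptors that carry the signal of Fc and other activating receptors, both had r = 0.93, and FCGR3A, an Fc receptor for IgG, had 0.91. The integrin chain ITGB2 (A_72_P146616), which pairs to form the complement receptor CR3, and the costimulatory receptor CD40 both had 0.92, but the second present probe of ITGB2, A_72_P198457, had 0.25. The 6 probes with an r of 0.91 or more were high in m_9600 and m_9527, and their adjusted P-values in the limma regression were 0.152 to 0.336. They are the top of a list in which 10 of 41 probes reached 0.7. Other probes of the macrophage list ran the other way, with r = -0.67 for FCGR1A, -0.69 for CD80 (A_72_P186596) and -0.45 for AXL. The second CD80 probe, A_72_P088196, had 0.11, and SIGLEC1 had 0.35. These genes were named after their values were seen.

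Of the complement genes the protease C1S, which is activated by C1q and C1r, ran closest to the profile with r = 0.94. It read 10.45, 10.43, 10.60 and 10.73 on the supplemented diet and 9.70, 11.17, 9.71 and 9.68 on the control diet, so that the 3 control boars other than m_9600 were below all supplemented boars. SERPING1 (A_72_P011466), the C1 inhibitor, had r = 0.88, but 0.60 without the 2 outer boars, and its other probe, A_72_P209407, had 0.47. Of the Toll-like receptor genes the chemokine CCL4 had r = 0.93. NFKBIA, the inhibitor of NF-kappa B, had 0.85 with the probe A_72_P165846 and -0.06 with A_72_P342398. Limma gave C1S, CCL4 and the higher probes of SERPING1 and NFKBIA adjusted P-values of 0.260 to 0.363.

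**Figure D4:**
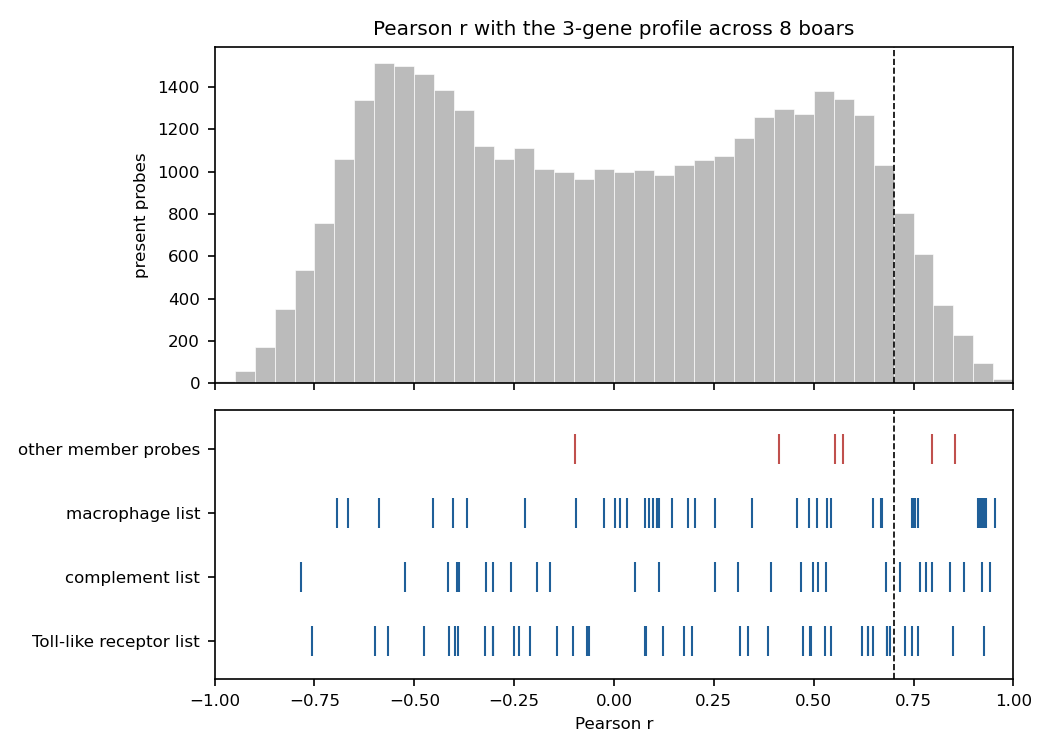
Number of present probes (upper vertical axis) by their Pearson correlation with the 3-gene profile across 8 boars (horizontal axis), with the single probes of the other members and of the 3 lists as ticks below. The dashed line marks 0.7, which 5.73% of all probes, 2 of 6 other member probes and 22 of 109 listed probes reached.

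Among all named probes outside the members, those most like the profile over the 8 boars were MGP (A_72_P146471, r = 0.97), the galectin LGALS9 (A_72_P179706 and A_72_P077551, both 0.96), GP91-PHOX (0.95), BTG2 (A_72_P428459, 0.95), C1S (0.94), the MHC class II gene SLA-DRB1 (0.93), FCER1G, CCL4 and TYROBP (each 0.93). MGP, the matrix Gla protein that inhibits calcification, read 12.32, 12.34, 12.30 and 12.95 against 11.58, 12.95, 11.95 and 11.49. Of these 10 probes 5 stand in the 3 lists, and each had an r of at least 0.88 without m_9600. Of the genes with further present probes, LGALS9 had 0.88 with its other probe and SLA-DRB1 0.84 to 0.90 with 4 others, while the second probe of BTG2, A_72_P232792, had -0.0019. None passed in the limma regression after adjustment (0.152 to 0.336).

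**Figure D5:**
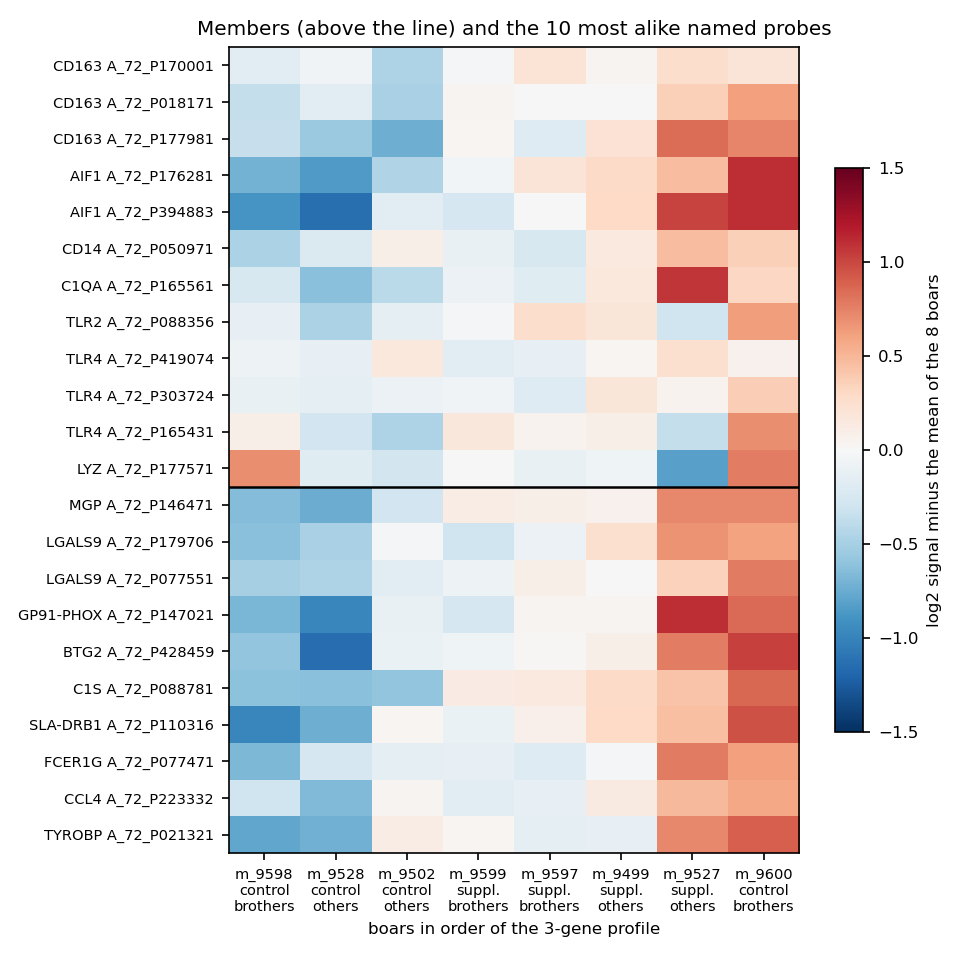
Log2 signal minus the mean of the 8 boars (colour) for the 12 present member probes above the line and the 10 named probes most like the 3-gene profile below it, with boars ordered by the profile from m_9598 (7.26) to m_9600 (8.44). The lower probes are red in m_9527 and m_9600 and mostly blue in m_9598 and m_9528, while TLR2, TLR4 A_72_P165431 and LYZ are blue in m_9527.

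Markers of other cells of the testis were set beside the profile. An r of at least 0.7 was found for the peritubular genes CNN1 (r = 0.92) and DES (A_72_P209552, 0.70). It was also found for the endothelial gene PECAM1 (A_72_P218027, 0.83) and the T cell gene CD4 (0.70, but 0.51 without m_9600). The other DES probes had 0.61 and 0.05, the other PECAM1 probe 0.66, the CDH5 probes 0.43 and -0.07, and the other T cell probes 0.16 to 0.45. Thus 2 of 4 peritubular, 1 of 4 endothelial and 1 of 5 T cell probes reached 0.7, against 5.73% of all probes. None of 11 Leydig cell, 7 Sertoli cell, 3 germ cell and 2 B cell probes did so. The median level of the peritubular probes relative to the mean of all boars was 0.53 in m_9527 and 0.39 in m_9600, and -0.46 to 0.17 in the other 6. The median of the 11 Leydig cell probes, whose median r was -0.32, was lowest in m_9527 (-0.92) and highest in m_9499 (1.12). Marker genes of neutrophils and red blood cells had no probe that could be named, and the part of these cells in the profile was not tested.

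Between the diets the median differences of the complement and Toll-like receptor lists were close to that of all probes, and that of the macrophage list was slightly lower. The median difference was -0.08 for the macrophage, 0.02 for the complement and -0.00 for the Toll-like receptor list, and -0.00 for all present probes. Higher on the supplemented diet were 13 of 41 macrophage, 14 of 28 complement and 20 of 42 Toll-like receptor probes, against 18313 of all 36982. A limma P-value under 0.05 was found for 4 of the 109 probes (3.67%), 1 higher and 3 lower on the supplemented diet, against 1.86% of all probes. With each boar left out in turn this count ran from 1, without m_9528, to 18, without m_9502. The share of all probes without these boars is not given, so nothing is read from this range. ARG1 (arginase) differed by -0.68, with 5.41, 5.38, 5.59 and 5.86 on the supplemented and 6.09, 6.62, 5.94 and 6.32 on the control diet. The ARG1 probe was as dim as those of TLR4. It had r = 0.11 with the 3-gene profile, and -0.84 without m_9600 and m_9527. Its diet groups did not overlap, which was so for 2 of the 109 probes (1.83%, the other being TICAM2, named after its value was seen) and for 1.13% of all probes. SPI1 (PU.1), the transcription factor of the myeloid lineage, differed by -0.68 and had r = 0.20 with the profile. The scavenger receptor CD36 differed by -0.54 with the probe A_72_P303204, but by -0.03 with A_72_P393078. HMGB1, a nuclear protein that can activate Toll-like receptors when released, differed by 0.63 with the probe A_72_P170371, and by -0.16 to 0.57 with its 5 other present probes. The adjusted P-values from limma were 0.840 for the 4 probes with a P-value under 0.05. In ARG1 and SPI1, too, m_9600 was the highest boar, and it was highest in 40 of the 109 probes (36.7%) against 9.56% of all. It was also highest in 3 of 5 T cell, 2 of 4 endothelial, 2 of 4 peritubular and 2 of 7 Sertoli cell probes. Among 11 Leydig cell, 3 germ cell and 2 B cell probes it was highest in 0. The lists were chosen with earlier results of these data known, so these counts are a description.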

How the data were processed

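Testis RNA of 8 boars, 4 per diet, was measured. For each array the authors deposited the spot intensity as written by Agilent Feature Extraction (version 10.5.1.1 per the file headers). A table of log2 values that the authors deposited holds 35258 probes, those present in 3 or more boars of a diet, and served as an alternative. Here log2 gMedianSignal of non-control spots was quantile-normalized without background subtraction, which understates changes of dim probes. Probes were kept if above 25 and well above background in 2 or more boars of a diet. Diets, litters and regressions on the 3-gene profile were fitted with limma 3.58.1 in R 4.3.3, two-sided. For correlations 0.7 was set as limit. Exact two-sided permutation P-values were computed only for the probes of C1QA, TLR2, TLR4 and LYZ, for 6 relations with the profile and 15 pairs. They treat the 8 boars as exchangeable, although 4 are full brothers. The code was tested on simulated data. Figures were drawn with matplotlib 3.10.9.

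Of 3239 probes with a RefSeq accession, 2628 matched the gene table of Sscrofa11.1, used for names only, and 3064 had a name. All 13 member probes had 1 spot. Named were all members, listed genes with P under 0.05 or r of at least 0.7 (up to 10), and the 10 most alike probes. Members and lists were chosen with earlier results of these data known. Alternatives were other signal columns, normexp, other filters and tests, array weights, the slide as block, subsets of boars and each boar left out.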

Additional observations from a re-analysis of the deposited data

Results flagged for a closer look

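In the 24 sets of 4 boars of one diet and one member probe, 3 boars stood apart from the other 3 of their diet by Dixon's ratio, the gap to the nearest boar divided by the whole range. Chance gives about 1 in 20 sets, that is 1.2 of 24. The supplemented boar m_9527 was high for CD163 A_72_P018171 (ratio 0.864, log2 signal 6.37 against 5.99 to 6.04) and low for LYZ (ratio 0.861, 7.59 against 8.29 to 8.40). The control boar m_9600 was high for TLR4 A_72_P303724 (ratio 0.906, 6.20 against 5.69 to 5.74).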

How the results depend on the processing

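No adjusted P-value of a member was under 0.05 in any of 21 diet or 17 litter alternatives, the lowest being 0.279 and 0.140, both for LYZ. C1QA kept an r above 0.7 in all 18 alternatives, and the number of listed probes at 0.7 or above was 15 to 33. The number of member probes with a diet P-value under 0.05 (0) was 1 with the slide block, 1 with array weights, 1 in the brothers alone, 4 in the other boars alone, 3 without m_9600 and m_9527, and 0 to 4 with each boar left out (4 without m_9600, 1 without m_9502). Diet groups without overlap (0) numbered 2 in the brothers, 8 in the other boars, 6 without m_9600 and m_9527, and 0 to 5 with each boar left out (5 without m_9600). Counts of member probes without m_9600, those in the other boars alone among them, depend on the choice of genes by that boar and are not read. Listed probes with a diet P-value under 0.05 (4) numbered 2 with gMedianSignal scaled to the 75th percentile. They also numbered 2 with the filter on all 8 arrays and with the ordinary equal-variance test, and 12 with array weights. They numbered 7 in the brothers, against 6.44% of all probes, and 1 to 18 with each boar left out. The count was 18 without m_9502, 9 without m_9600 (against 3.28% of all probes), 2 without m_9499 and 1 without m_9528. Where no share of all probes is given for a setting, the count is not read as a result about the genes. Other members with r of at least 0.7 (2) were 1 with normexp and 1 to 4 with each boar left out (1 without m_9600, 4 without m_9527). Members with a litter P-value under 0.05 (2) were 1 with gMedianSignal scaled to the 75th percentile, with normexp and with array weights, and 1 to 2 with each boar left out (1 without m_9599, m_9502, m_9527 or m_9528).

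Differences that turned sign were not called in any setting after adjustment. In the brothers alone the diet difference was -0.11 for CD163 A_72_P018171, -0.28 for CD163 A_72_P177981, -0.12 for AIF1 A_72_P176281, -0.23 for AIF1 A_72_P394883, -0.12 for CD14, -0.17 for C1QA and -0.13 for TLR2. For TLR4 A_72_P419074, A_72_P303724 and A_72_P165431 it was 0.11, 0.23 and 0.24 in the other boars alone. For A_72_P303724 it was 0.091 and for A_72_P165431 0.32 without m_9600 and m_9527, for A_72_P165431 0.091 with gProcessedSignal, and for A_72_P303724 0.040 with normexp. With each boar left out it ran from -0.0089 to 0.27 for CD14, -0.10 to 0.27 for TLR2, -0.18 to 0.21 for TLR4 A_72_P165431, -0.073 to 0.11 for A_72_P303724 and -0.093 to 0.039 for A_72_P419074. The litter difference was -0.10 for CD163 A_72_P170001 and -0.049 for A_72_P018171 with gMedianSignal scaled to the 75th percentile, 0.011 for TLR4 A_72_P419074 and 0.080 for A_72_P303724 with normexp, and -0.043 for AIF1 A_72_P176281 and -0.14 for CD163 A_72_P177981 with array weights. With each boar left out it ran from -0.20 to 0.53 for AIF1 A_72_P176281, -0.57 to 0.28 for AIF1 A_72_P394883, -0.34 to 0.21 for C1QA, -0.11 to 0.28 for CD163 A_72_P018171, -0.0091 to 0.19 for A_72_P170001, -0.25 to 0.38 for A_72_P177981 and -0.15 to 0.075 for TLR4 A_72_P303724. The causes were not tested.

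No paired analysis was possible because the labels give no replicate numbers that the diets share. The brothers and the other boars were used as a block instead. The boars left out for the profile were chosen after seeing the data. With 4 boars per diet the precision is limited, and dim probes such as those of TLR4 can show only compressed differences.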

Other observations

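Beyond the genes named above, further complement and macrophage genes also ran with the 3-gene profile. C7, a part of the membrane attack complex, had r = 0.84 and was highest in m_9527 (6.45) with 5.14 to 5.92 in the other boars. C4BPA, the alpha chain of the inhibitor C4b-binding protein, had r = 0.77 (0.52 without m_9600 and m_9527), with 13.11 in m_9527 and 10.80 in m_9502. CD55, which speeds the decay of complement convertases, had r = 0.78 and C4A 0.80, which were 0.52 and 0.41 without these 2 boars. C2 had 0.72, and 0.57 without them. The C9 probe A_72_P223567 ran the other way with r = -0.78, and the second C9 probe, A_72_P108166, had 0.51. Among the macrophage genes, HMOX1, the enzyme that degrades haem, had r = 0.76, and 0.64 without the 2 boars. Both probes of CD74, the invariant chain of MHC class II, had 0.75, and 0.81 (A_72_P223292) and 0.55 (A_72_P395573) without the 2 boars. The CD36 probe A_72_P303204 had r = -0.59 and, without m_9600, -0.95, while A_72_P393078 had 0.015 and 0.28. Apart from CD36, these genes were named after their values were seen. These are correlations over 8 boars that share litters, and none of these probes passed in the limma regression after adjustment.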
